A study of Mus musculus with 24 samples.

Results

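The 8 genes described here encode the core of antigen presentation by major histocompatibility complex (MHC) class I in the mouse, namely the heavy chains H2-K1, H2-D1 and H2-T23, the light chain B2m, the peptide transporter subunits Tap1 and Tap2, the loading factor Tapbp and the transcriptional regulator Nlrc5. They were chosen by name, and all 8 were found among the 35045 gene names listed in every surface table and among the 55335 genes of the blood libraries. Surface RNA had been profiled in 15 libraries of wild-type C57BL/6 cells, 3 for each of 5 cell types: splenic natural killer (NK) cells, T cells and B cells, and, from bone marrow, monocytes and hematopoietic stem and progenitor cells (HSPCs). AMOUR, the assay used, fixes live cells, holds them on Concanavalin A beads, anneals a random primer with a T7 promoter to RNA on the outer membrane and copies that RNA in place with T7 RNA polymerase. Blood of wild-type mice gave 9 more libraries, made from the total RNA of its mononuclear cells (PBMCs), 3 each with the treatment labels ct, WT and Y, which the labels do not explain. The T cells were isolated with a kit for CD8 T cells and the HSPCs by depletion of lineage-positive bone marrow cells. Ages and sexes are not given in the sources used here, nor whether each library came from a separate animal, so that the p-values below measure the spread between these libraries.

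Class I molecules display peptides from inside the cell to T cells. A heavy chain pairs with B2m in the endoplasmic reticulum, where the Tap1 and Tap2 transporter brings in peptides cut by the proteasome and Tapbp, also called tapasin, holds the empty heavy chain next to the transporter until a peptide is bound. Interferon-gamma and Nlrc5 raise the transcription of most of these genes, and B cells, T cells and NK cells are known to carry much class I on their surface. The measurement here is of RNA, not of the proteins.

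H2-K1 lies on chromosome 17 from 33996017 to 34000347 on the minus strand, H2-D1 from 35262730 to 35267499 on the plus strand and H2-T23 from 36029773 to 36032855 on the minus strand (GRCm38, GENCODE M21 annotation). Tapbp (33915899 to 33929292), Tap1 (34187553 to 34197225) and Tap2 (34203527 to 34216321) are on the plus strand of the same chromosome. B2m is on chromosome 2 from 122147686 to 122153083 and Nlrc5 on chromosome 8 from 94434356 to 94527272, both on the plus strand. The promoters of H2-K1 (chr17:34000284-34000583, minus strand), H2-D1 (chr17:35262844-35263143, plus strand) and B2m (chr2:122147437-122147736, plus strand) are shown because the ratio of this light chain to its heavy chains is followed below. Each stretch is 300 bases, 250 before and 50 from the RefSeq start site on (GRCm38.p6), written 5′ to 3′ on the gene's strand, with capitals where 1 of the searched motifs matched.

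H2-K1: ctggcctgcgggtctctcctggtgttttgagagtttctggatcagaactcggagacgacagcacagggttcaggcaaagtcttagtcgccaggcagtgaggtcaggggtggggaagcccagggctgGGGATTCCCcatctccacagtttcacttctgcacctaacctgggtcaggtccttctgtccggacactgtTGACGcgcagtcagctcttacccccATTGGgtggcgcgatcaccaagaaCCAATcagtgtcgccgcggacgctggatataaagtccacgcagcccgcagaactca
H2-D1: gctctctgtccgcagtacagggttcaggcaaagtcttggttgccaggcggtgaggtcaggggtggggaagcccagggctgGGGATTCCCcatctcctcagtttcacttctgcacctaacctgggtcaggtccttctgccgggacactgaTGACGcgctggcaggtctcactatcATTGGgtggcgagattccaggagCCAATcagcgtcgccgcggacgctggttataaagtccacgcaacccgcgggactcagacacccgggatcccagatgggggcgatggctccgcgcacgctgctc
B2m: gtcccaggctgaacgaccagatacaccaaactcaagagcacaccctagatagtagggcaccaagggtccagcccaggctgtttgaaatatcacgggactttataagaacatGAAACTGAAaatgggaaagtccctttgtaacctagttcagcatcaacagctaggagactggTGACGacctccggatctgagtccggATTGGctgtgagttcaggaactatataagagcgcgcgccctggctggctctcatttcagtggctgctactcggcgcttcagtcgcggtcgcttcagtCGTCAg

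Searched on both strands were GAAANNGAA (the core of an interferon-stimulated response element, in 8.56% of 32851 RefSeq promoters of this length), GGGATTCCC (a kappa B motif, 0.353%), CCAAT (37.4%) and TGACG (part of a cyclic AMP response element, 20.8%). With the start site as position 0, H2-K1 held GGGATTCCC at -124 and TGACG at -55 (at -110 and -41 from its other RefSeq start), and H2-D1 held them at -170 and -101. B2m held GAAANNGAA at -139 and TGACG at -78 and 44. H2-T23 held GAAANNGAA at -123, and Tap1 held TGACG at -86. CCAAT or its reverse complement occurred in the promoters of all 6 members in the table, which were H2-K1, H2-D1, H2-T23, B2m, Tap1 and Tapbp. These matches describe letters only.

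The surface values are transcripts per 1000000 (TPM), summed over all transcripts of a gene, and protein-coding transcripts made up 16.9% to 18.1% of the TPM of monocyte libraries against 0.645% to 2.96% in the other 12. A gene's TPM therefore moves with the amount of other RNA in the library, and each gene was also expressed as a percentage of protein-coding TPM, from its protein-coding transcripts alone. The platform used to sequence monocytes was not that of the other 12 libraries, so that cell type and platform cannot be told apart for them. TPM keeps no read depth, so the depth of the surface libraries is unknown. In sum, markers of B, T and NK cells were highest in the libraries of their label. Among the T-cell markers Cd4 went the other way, with its lowest mean in T cells (0.0148 TPM) and its highest in NK cells (0.222 TPM). B-cell markers summed to 0.945 to 1.08% of protein-coding TPM in B cells and 0.0365 to 0.0668% in NK cells, T-cell markers to 0.340 to 0.417% in T cells and at most 0.0278% elsewhere, and NK-cell markers to 0.515 to 0.919% in NK cells and 0.0891 to 0.0966% in T cells. HSPC markers held 0.115 to 0.118% in HSPCs and 0.0552 to 0.0653% in NK cells, but as TPM they were highest in monocytes (44.8 to 55.8 against 15.2 to 25.2 in HSPCs and 11.1 to 25.3 in NK cells), and the means of Kit, Flt3, Meis1 and Myb, 4 of the 8, were higher in NK cells than in HSPCs. In HSPCs erythroid markers held 0.352 to 0.429% of protein-coding TPM. Neutrophil markers summed to 0.844 to 0.913% in monocytes and at most 0.286% elsewhere, with none of the 8 at 0 in monocytes. In bulk samples, fewer cells of a type and less RNA per cell cannot be told apart.

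Together the 8 genes made up 1.09% ± 0.135 of the protein-coding TPM on T cells (mean ± SD, n = 3 here and below), 0.893% ± 0.123 on NK cells, 0.672% ± 0.0193 on B cells, 0.409% ± 0.0345 on monocytes and 0.270% ± 0.0313 on HSPCs. On this scale, which is per length, B2m was the most abundant of them on T cells, NK cells, HSPCs and monocytes, where it ranked 9, 11, 149 and 40 among protein-coding genes. On B cells H2-D1 came first of the 8, at rank 52, and B2m followed at rank 86.

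H2-K1, a classical heavy chain that presents peptides to CD8 T cells, was carried at a like share by the 3 lymphocyte types. The B-cell libraries held 0.129, 0.133 and 0.157% of their protein-coding TPM as H2-K1, the T-cell libraries 0.131, 0.121 and 0.119% and the NK-cell libraries 0.130, 0.145 and 0.121%. HSPC libraries held 0.0541, 0.0558 and 0.0487% and monocyte libraries 0.0388, 0.0445 and 0.0455%. The ranges of B, T and NK cells overlapped, every lymphocyte library lay above every HSPC library, and every HSPC library lay above every monocyte library. Summed over all transcripts, its TPM was 130.5 ± 41.0 on NK cells, 88.7 ± 15.7 on B cells, 59.8 ± 28.0 on T cells, 138 ± 3.53 on monocytes and 23 ± 7.18 on HSPCs. Across the lymphocytes its TPM was lowest in T replicate 1, the library with the lowest protein-coding content.

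H2-D1, the other classical heavy chain of this strain, was the most abundant heavy chain per length on this scale in all 5 cell types. As percentage of protein-coding TPM, H2-D1 reached 0.207, 0.266 and 0.284% on B cells, 0.159, 0.173 and 0.170% on T cells and 0.163, 0.213 and 0.198% on NK cells. The values were 0.0751, 0.0766 and 0.0646% on HSPCs and 0.0894, 0.0917 and 0.0888% on monocytes. B and NK cells overlapped in 1 pair of values, NK and T cells overlapped, and HSPCs had the lowest values, below all monocyte libraries. Over all transcripts, H2-D1 averaged 165 ± 6.99 TPM on monocytes, 48.4 ± 19.4 on NK cells, 19.9 ± 8.65 on T cells, 60.2 ± 2.72 on B cells and 11.9 ± 3.47 on HSPCs. Because classical heavy chains are near-identical over long stretches, Kallisto had to divide reads among H2-K1, H2-D1 and related copies, and the division between them is uncertain.

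H2-T23 encodes Qa-1, a non-classical heavy chain that inhibits NK cells through the receptor of Klrd1 and Klrc1. Values were 0.0386, 0.0386 and 0.0424% of protein-coding TPM in the B-cell libraries, 0.0147, 0.0172 and 0.0154% in those of T cells and 0.0143, 0.0180 and 0.0211% in those of NK cells. For HSPCs they were 0.0101, 0.0111 and 0.0109%, and for monocytes 0.0194, 0.0167 and 0.0152%. All B-cell libraries lay above every other library, T cells, NK cells and monocytes overlapped, and HSPCs were lowest. The TPM of all H2-T23 transcripts averaged 1.95 ± 0.507 on HSPCs, 32.5 ± 3.85 on monocytes, 12 ± 1.79 on B cells, 6.03 ± 2.56 on NK cells and 3.03 ± 1.43 on T cells. In T cells and HSPCs it was scarce enough that the pseudocount shrinks its fold changes on the TPM scale.

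B2m, the light chain that all class I heavy chains need, had a pattern of its own. The B-cell libraries held 0.255, 0.142 and 0.112% of their protein-coding TPM as B2m, the T-cell libraries 0.864, 0.757 and 0.599% and the NK-cell libraries 0.643, 0.499 and 0.373%. HSPC libraries held 0.0891, 0.136 and 0.0912% and monocyte libraries 0.188, 0.221 and 0.254%. T-cell and NK-cell libraries lay above all others and overlapped with each other, though in each same-numbered pair the T-cell share was the higher one, B cells overlapped with monocytes and with HSPCs, and B replicate 1 was about the level of the highest monocyte library. Summed over all transcripts, its TPM was 110.1 ± 14.3 on NK cells, 43.1 ± 26.9 on B cells, 80.9 ± 30.5 on T cells, 389 ± 65.8 on monocytes and 17.1 ± 8.27 on HSPCs. Among the 8 genes it had the widest spread between B libraries relative to the mean, since B replicate 1 held 73.6 TPM and the other B libraries 33.2 and 22.5.

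Tap1, a subunit of the peptide transporter, was highest in B cells as protein-coding share and in monocytes as TPM. As percentage of protein-coding TPM, Tap1 reached 0.0182, 0.0178 and 0.0212% on B cells, 0.00556, 0.00479 and 0.00479% on T cells and 0.0130, 0.00853 and 0.00881% on NK cells. The values were 0.00846, 0.00792 and 0.00792% on HSPCs and 0.00804, 0.0115 and 0.00725% on monocytes. All B libraries lay above all others, all T libraries lay below all others, and monocytes overlapped with both NK cells and HSPCs. Over all transcripts, Tap1 averaged 17.7 ± 2.69 TPM on monocytes, 4.47 ± 0.887 on NK cells, 2.25 ± 0.985 on T cells, 6.77 ± 0.669 on B cells and 1.98 ± 0.493 on HSPCs.

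Tap2, the partner subunit, had another order than Tap1 as protein-coding share, while the means over all transcripts had the same order for both. Values were 0.00498, 0.00577 and 0.00470% of protein-coding TPM in the B-cell libraries, 0.00606, 0.00755 and 0.00794% in those of T cells and 0.00859, 0.00494 and 0.00526% in those of NK cells. For HSPCs they were 0.00494, 0.00245 and 0.00373%, and for monocytes 0.00112, 0.000468 and 0.000805%. NK cells overlapped with T cells and with B cells, which did not overlap with each other, HSPCs overlapped with B cells, and the 3 monocyte libraries were lowest. The TPM of all Tap2 transcripts averaged 1.87 ± 0.151 on HSPCs, 9.74 ± 1.53 on monocytes, 4.94 ± 0.596 on B cells, 3.83 ± 1.19 on NK cells and 1.96 ± 0.914 on T cells.

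Tapbp, or tapasin, was, like H2-T23, highest in B cells and lowest in HSPCs as protein-coding share. The B-cell libraries held 0.0328, 0.0421 and 0.0474% of their protein-coding TPM as Tapbp, the T-cell libraries 0.0237, 0.0201 and 0.0215% and the NK-cell libraries 0.0181, 0.0248 and 0.0242%. HSPC libraries held 0.0162, 0.0131 and 0.0169% and monocyte libraries 0.0258, 0.0228 and 0.0266%. All B libraries lay above the rest, monocytes, NK cells and T cells overlapped, and HSPCs were lowest. Summed over all transcripts, its TPM was 9.50 ± 3.39 on NK cells, 17.6 ± 2.33 on B cells, 3.60 ± 1.54 on T cells, 51.1 ± 3.98 on monocytes and 3.77 ± 0.540 on HSPCs.

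Nlrc5, the transactivator of class I promoters, was scarce and followed B2m in its order among the lymphocytes. As percentage of protein-coding TPM, Nlrc5 reached 0.00459, 0.00674 and 0.00596% on B cells, 0.0138, 0.0135 and 0.0123% on T cells and 0.00840, 0.00942 and 0.00704% on NK cells. The values were 0.00156, 0.00207 and 0.00135% on HSPCs and 0.00291, 0.00318 and 0.00338% on monocytes. The 5 cell types did not overlap, with T cells first, then NK cells, B cells, monocytes and HSPCs. Over all transcripts, Nlrc5 averaged 6.81 ± 0.459 TPM on monocytes, 3.34 ± 1.27 on NK cells, 3.17 ± 2.01 on T cells, 2.18 ± 0.122 on B cells and 0.388 ± 0.151 on HSPCs. The TPM of the 3 lymphocyte types overlapped, unlike the shares.

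**Figure D1:**
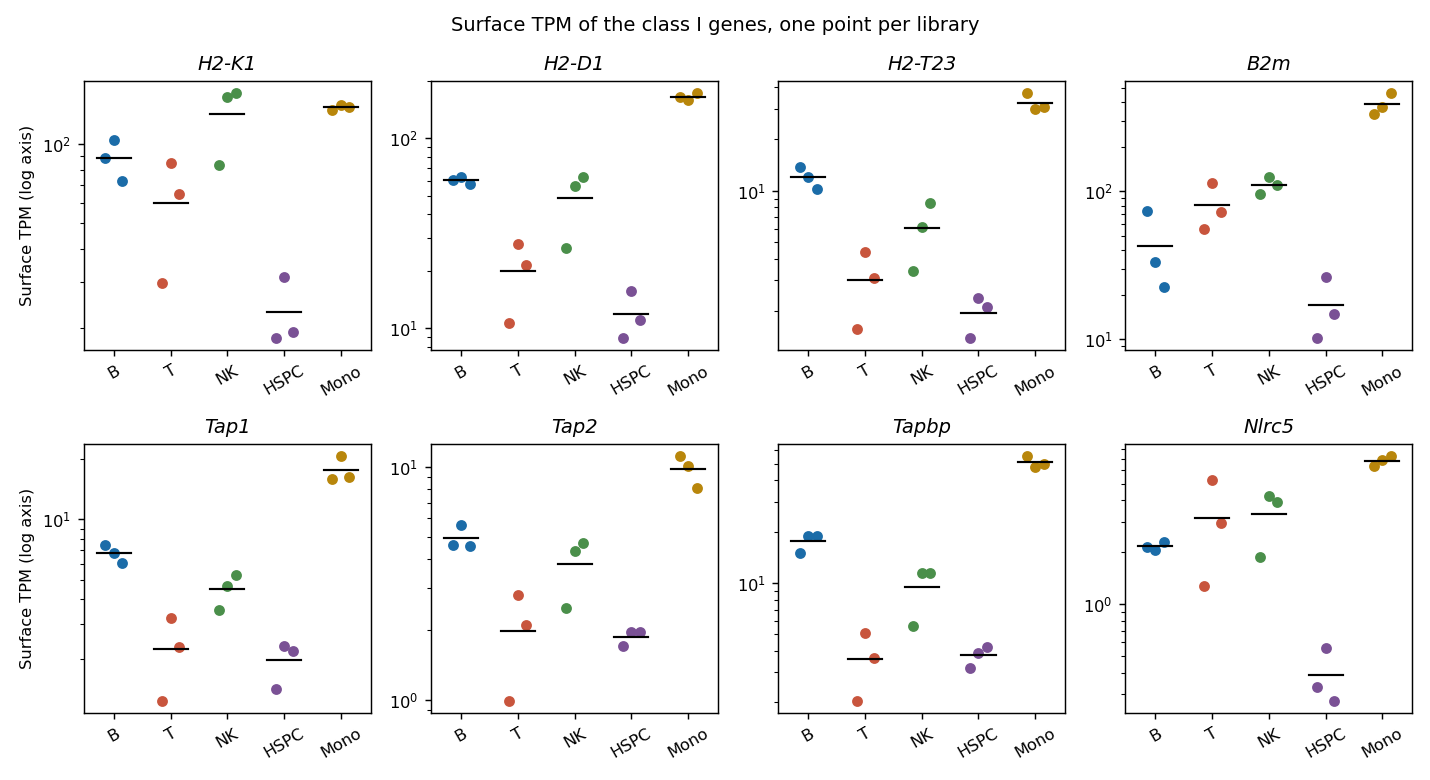
Surface TPM of the 8 genes (log axis), with 1 point per library and a line at the mean of 3 libraries, by cell type (Mono, monocytes). Monocytes lie highest by mean for all 8 genes and HSPCs lowest for all but Tapbp, whose mean was 3.60 TPM in T cells and 3.77 in HSPCs. As TPM, 89.9% of all genes were called higher in monocytes against the rest and 20.9% lower in HSPCs against lymphocytes.

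**Figure D2:**
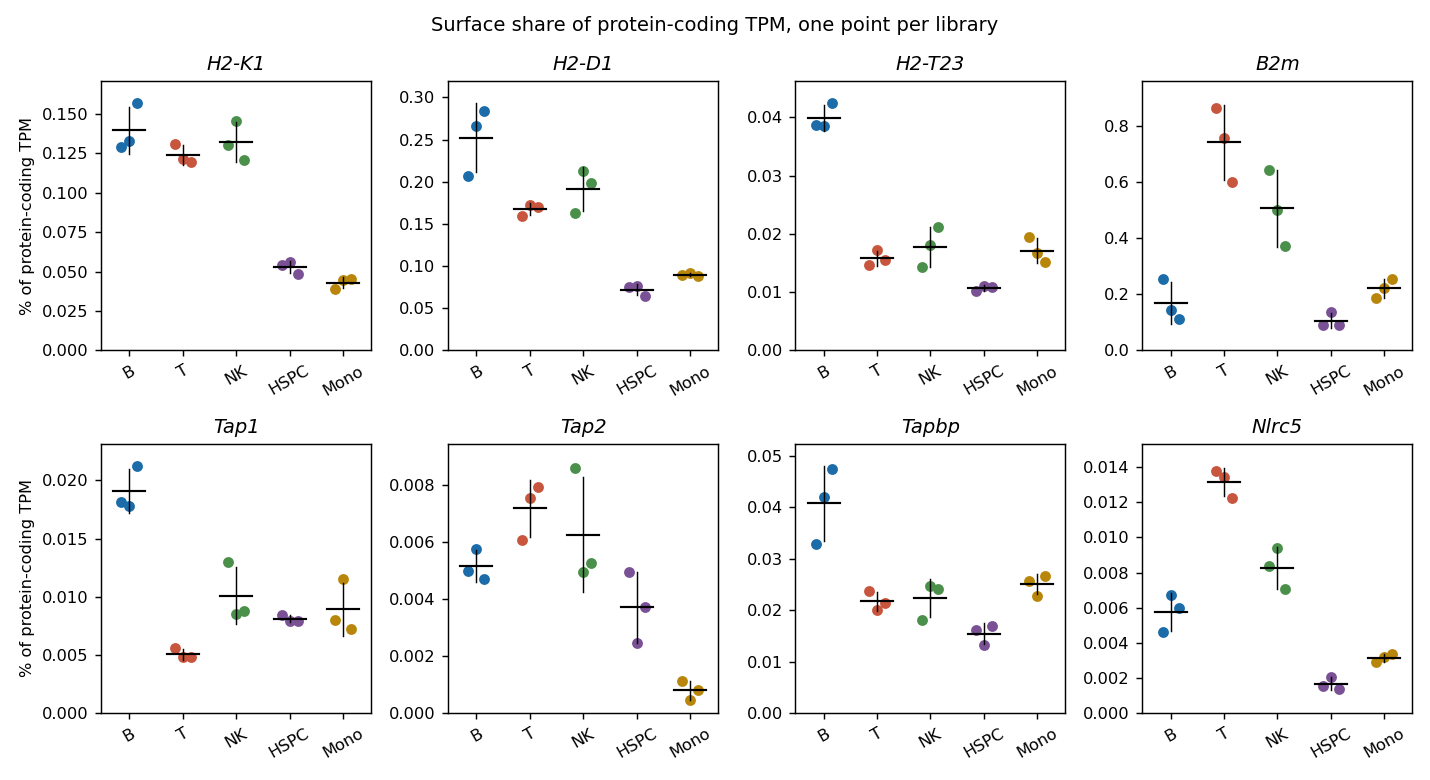
The same genes as percentage of protein-coding TPM, from protein-coding transcripts, with 1 point per library and mean ± SD (linear axes from 0). B2m and Nlrc5 are highest in T cells, H2-T23, Tap1 and Tapbp in B cells, and H2-K1 is alike in the 3 lymphocyte types.

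The relation of light chain to heavy chains was described by the ratio of B2m to the sum of H2-K1, H2-D1 and H2-T23, all from protein-coding transcripts. It was 2.83, 2.43 and 1.97 on T cells, 2.09, 1.32 and 1.10 on NK cells and 0.681, 0.325 and 0.232 on B cells. Means were 2.41 ± 0.433, 1.5 ± 0.522 and 0.413 ± 0.237 in the same order, and 0.774 ± 0.159 in HSPCs and 1.47 ± 0.216 in monocytes. On this scale all T-cell, NK-cell and monocyte libraries carried more B2m than heavy chain TPM, and all B-cell and HSPC libraries less. With all transcripts counted the ratio was 1.33, 0.980 and 0.810 on T cells, 0.848, 0.581 and 0.484 on NK cells, 0.450, 0.186 and 0.160 on B cells, 0.356, 0.533 and 0.458 on HSPCs and 0.989, 1.13 and 1.35 on monocytes, so that every NK-cell library and 2 of 3 T-cell libraries then lay below 1 and the highest mean was that of monocytes. T-cell and NK-cell libraries overlapped on both scales, with the T-cell ratio the higher one in 3 of 3 same-numbered pairs. In PBMC total RNA, as TPM over the genes, the mean ratio of Y was 0.408 ± 0.00309, that of WT 0.392 ± 0.0231 and that of ct 0.418 ± 0.0269. These ratios are descriptions and were not tested.

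B cells and T cells were compared first, with limma on log2(TPM + 1) and on log2(1000000 times the fraction of protein-coding TPM + 10), in each case with Benjamini-Hochberg adjustment over all genes tested. The log2 fold changes below are on these scales, which understate the changes of scarce genes. B cells carried more H2-T23 (log2 fold change 1.28, SE 0.14, adjusted p = 3.39e-06 on the share scale), Tap1 (log2 fold change 1.73, SE 0.17, adjusted p = 1.1e-06), Tapbp (log2 fold change 0.86, SE 0.16, adjusted p = 0.000525) and H2-D1 (log2 fold change 0.58, SE 0.14, adjusted p = 0.0049). They carried less B2m (log2 fold change -2.19, SE 0.28, adjusted p = 1.56e-05) and less Nlrc5 (log2 fold change -1.08, SE 0.15, adjusted p = 4.84e-05). H2-K1 (0.17, adjusted p = 0.309) and Tap2 (-0.41, adjusted p = 0.156) did not pass the threshold of 0.05. Thus 4 members were higher and 2 lower of 8, where 26.4% of the 8989 genes tested were called higher and 15.2% lower.

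On the TPM scale the same 4 genes were higher in B cells, with log2 fold changes of 1.75 for H2-T23, 1.30 for Tap1, 2.07 for Tapbp and 1.64 for H2-D1, and Tap2 was higher as well (1.05, adjusted p = 0.00431). B2m (-1.0, adjusted p = 0.0848), H2-K1 (0.67, adjusted p = 0.189) and Nlrc5 (-0.27, adjusted p = 0.495) did not pass. The count of 5 higher and 0 lower of 8 stands beside 35.8% higher and 4.73% lower of the 10349 genes tested, and the median log2 fold change was 1.17 for the members and 0.38 for all genes (on the share scale 0.37 and 0.10). Of all genes called on the TPM scale, 88.3% were higher in B cells, against 54.9% after quantile normalization, and the median over all genes was 0.02 after quantile normalization and 0.84 after rescaling to TPM without ribosomal RNA and 3 same-valued transcripts. H2-T23, Tap1, Tapbp and H2-D1 stayed higher under both, where 2135 of 10349 genes were called higher after quantile normalization and 7358 of 13788 after rescaling. Without B replicate 1, B2m also passed on the TPM scale, as lower in B cells (-1.47, adjusted p = 0.0179). HSPC markers moved with this comparison, with mean Myb at 0.276 TPM in B cells and 2.58 in T cells. Only Flt3 among them had the higher mean in B cells (0.119 TPM, against 0.0161 in T cells). The part of these markers was not tested.

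The comparison of B cells with NK cells uses the same B libraries. On the share scale B cells carried more H2-T23 (log2 fold change 1.13, SE 0.14, adjusted p = 1.09e-05), Tap1 (log2 fold change 0.87, SE 0.17, adjusted p = 0.000776), Tapbp (log2 fold change 0.84, SE 0.16, adjusted p = 0.000584) and H2-D1 (log2 fold change 0.39, SE 0.14, adjusted p = 0.0378), and less B2m (log2 fold change -1.62, SE 0.28, adjusted p = 0.000235) and Nlrc5 (log2 fold change -0.46, SE 0.15, adjusted p = 0.0234). H2-K1 (0.08, adjusted p = 0.637) and Tap2 (-0.21, adjusted p = 0.465) did not pass. Background calls were 17.9% higher and 27.8% lower, and the medians 0.24 for the members and -0.11 for all genes. The call of Nlrc5 was lost without B replicate 1 or NK replicate 2 (adjusted p 0.0892 to 0.102). That of H2-D1 was lost without B replicate 2 or 3, NK replicate 1 or 3, HSPC replicate 1 or monocyte replicate 1 (adjusted p 0.05 to 0.147), and without the filter on low values (adjusted p = 0.0552).

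As TPM, H2-T23 was higher (0.95, adjusted p = 0.0449) and B2m lower (-1.5, adjusted p = 0.0273) in B cells than in NK cells, 1 member in each direction, where 8.17% of all genes were higher and 12.1% lower. The median of the members was 0.36 and that of all genes -0.07. The share of higher calls among all genes was 40.3%, 54.0% after quantile normalization and 54.3% after rescaling. The members called higher and lower moved too, to 0 and 0 without the filter on low values and to 3 and 0 after rescaling. Of all genes, 933 and 1421 of 35045 were called without the filter and 1664 and 1399 of 13788 after rescaling. Quantile normalization also gave more higher members, beside 2151 higher and 1830 lower of 10349 genes. The call of H2-T23 lay close to the threshold, and the calls of both H2-T23 and B2m were lost when certain single libraries were left out. H2-T23 remained called only without NK replicate 3, T replicate 1 or T replicate 2, when Tapbp was called too, with adjusted p 0.0505 to 0.135 in the other 12 fits, and B2m was lost without B replicate 2 or 3 or NK replicate 2 or 3 (adjusted p 0.066 to 0.131). The B-cell markers found in NK libraries, 103 to 266 TPM in sum against 524 to 747 in B cells with none of the 8 at 0, move with this comparison. So do erythroid markers (0.952 to 15.8 TPM in B cells and 62.2 to 107 in NK cells), neutrophil markers (0.0962 to 0.430 and 24.5 to 34.3) and HSPC markers (0.757 to 0.862 and 11.1 to 25.3). Their part in it was not tested.

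T cells and NK cells differed in 2 members as shares and in 6 as TPM. On the share scale T cells carried less Tap1 (log2 fold change -0.86, SE 0.17, adjusted p = 0.00109) and more Nlrc5 (log2 fold change 0.62, SE 0.15, adjusted p = 0.00513), 1 member in each direction against 8.70% higher and 31.2% lower of all genes. B2m was 0.57 (adjusted p = 0.122, and 0.0991 with the replicate number as a block over all 15 libraries). That block did not model the pairing of T-cell and NK-cell libraries alone. B2m was higher as a share and lower as TPM in T cells in 3 of 3 same-numbered pairs. The other 5 members lay between -0.19 for H2-D1 and 0.20 for Tap2. As TPM, 6 members were lower in T cells and 0 higher, where 43.5% of all genes were lower and 2.91% higher. The 6 were H2-D1 (-1.24, adjusted p = 0.0201), H2-K1 (-1.18, adjusted p = 0.0267), Tapbp (-1.19, adjusted p = 0.00772), H2-T23 (-0.80, adjusted p = 0.0484), Tap1 (-0.78, adjusted p = 0.019) and Tap2 (-0.72, adjusted p = 0.0288). The medians were -0.79 for the members and -0.49 for all genes as TPM, and -0.06 and -0.24 as shares. Higher calls made up 6.26% of all calls and 45.4% after quantile normalization, which moved the median of all genes to 0 and turned Nlrc5 from -0.13 to 0.57 (adjusted p = 0.0105). After quantile normalization 3 members were called lower and 1 higher, beside 1595 lower and 1328 higher of 10349 genes. Without the filter on low values 3 were called lower, beside 3437 lower and 456 higher of 35045 genes. Without T replicate 1, NK replicate 2 or NK replicate 3, only Tapbp stayed below the threshold as TPM, and H2-K1 for instance had an adjusted p of 0.0962 to 0.126. H2-T23 was lost whichever library was left out, except NK replicate 1 or T replicate 2 (adjusted p 0.0527 to 0.223). The protein-coding content was 0.645% in T replicate 1 and 1.2% and 1.52% in the other T libraries, against 1.49% to 2.96% in NK cells, and its part in the TPM difference was not tested. The 4504 genes called lower as TPM became 2078 without T replicate 1, 2546 without NK replicate 2 and 2056 without NK replicate 3. Markers of other cells also moved with this comparison. Erythroid markers summed to 3.99 to 10.06 TPM in T cells and 62.2 to 107 in NK cells, neutrophil markers to 0.0706 to 0.362 and 24.5 to 34.3, HSPC markers to 2.26 to 4.39 and 11.1 to 25.3 and B-cell markers to 18.5 to 129 and 103 to 266, with overlap for the B-cell markers alone. Camp and Retnlg were at 0 in all T-cell libraries and Mmp8 in all NK-cell libraries. Their part was not tested.

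HSPCs, set against the mean of the 3 lymphocyte types, carried less class I RNA as shares and as deposited TPM, though for most members not after rescaling of TPM. On the share scale 7 of 8 members were lower, where 23.5% of all genes were lower and 34.0% higher. The differences were -1.89 for B2m (adjusted p = 4.31e-06), -1.85 for Nlrc5 (9.6e-09), -1.46 for H2-D1 (6.06e-08), -1.30 for H2-K1 (5.11e-08), -0.99 for H2-T23 (3.07e-06), -0.77 for Tapbp (0.000132) and -0.62 for Tap2 (0.00819). Tap1, at -0.27 (adjusted p = 0.117), did not pass, and Tap2 was lost without HSPC replicate 2 (-0.42, adjusted p = 0.0908). The median was -1.15 for the members and 0.12 for all genes.

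As TPM all 8 members were lower in HSPCs, from -2.04 for B2m to -0.59 for Tap2, where 20.9% of all genes were lower and 7.61% higher, and the medians were -1.34 and -0.15. This count depended on scaling. Rescaling without ribosomal RNA and the 3 same-valued transcripts moved the median of all genes to 0.80 and the share of higher calls from 26.7% to 88.4% (55.5% after quantile normalization). Only Nlrc5 then remained lower (-1.06), Tap2 was higher (0.71, adjusted p = 0.0260), and the others lay from -0.53 to 0.48 without passing. Of all 13788 genes tested after rescaling, 8158 were called higher and 1068 lower. All 8 values lay below the median of all genes on that scale. Tap1 was lost as TPM without HSPC replicate 1 (-0.64, adjusted p = 0.0623), and Tap2 without any one of the HSPC libraries, B replicate 1 or 2, NK replicate 2 or 3, T replicate 2 or 3 or monocyte replicate 2 (adjusted p 0.0506 to 0.143). Erythroid markers, at 0.352 to 0.429% of protein-coding TPM in HSPCs, were also 0.241 to 0.702% in NK cells. Platelet markers summed to 0.168 to 0.181% in HSPCs, 0.0290 to 0.0330% in NK cells and at most 0.00214% in B and T cells. Neutrophil markers moved as well, with mean S100a8 at 7.00 TPM in HSPCs, 8.77 in NK cells, 0.111 in B cells and 0.0887 in T cells. Their part was not tested.

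Monocytes, set against the mean of the other 4 cell types, were higher in all 8 members as deposited TPM, from 1.17 for H2-K1 to 2.98 for B2m on the log2 scale, though only in B2m after quantile normalization. Of all genes, 89.9% were higher and 4.15% lower as deposited TPM, and the median of the members (2.29) was below that of all genes (2.48). As shares, 4 members were lower in monocytes, Tap2 (-1.84, adjusted p = 2.56e-07), H2-K1 (-1.27, adjusted p = 3.05e-08), H2-D1 (-0.78, adjusted p = 2.79e-05) and Nlrc5 (-0.74, adjusted p = 8.07e-05), and 0 were higher, where 19.2% of all genes were lower and 44.0% higher. B2m (-0.34, adjusted p = 0.192), H2-T23 (-0.13, adjusted p = 0.339), Tap1 (-0.10, adjusted p = 0.548) and Tapbp (0.09, adjusted p = 0.545) did not pass, and the medians were -0.54 and 0.27. Quantile normalization of TPM moved the median of all genes to -0.01 and the higher calls from 95.6% to 50.2%. It left only B2m higher (1.99) and made H2-K1, H2-T23, Nlrc5, Tap1 and Tap2 lower, beside 3283 higher and 3254 lower of 10349 genes. The neutrophil markers in the monocyte libraries move with this comparison, at 1530.4 to 1573 TPM against at most 56.7 elsewhere, as do platelet markers, at 94.4 to 134 TPM against at most 36.6. Their part was not tested, and cell type and platform cannot be told apart.

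**Figure D3:**
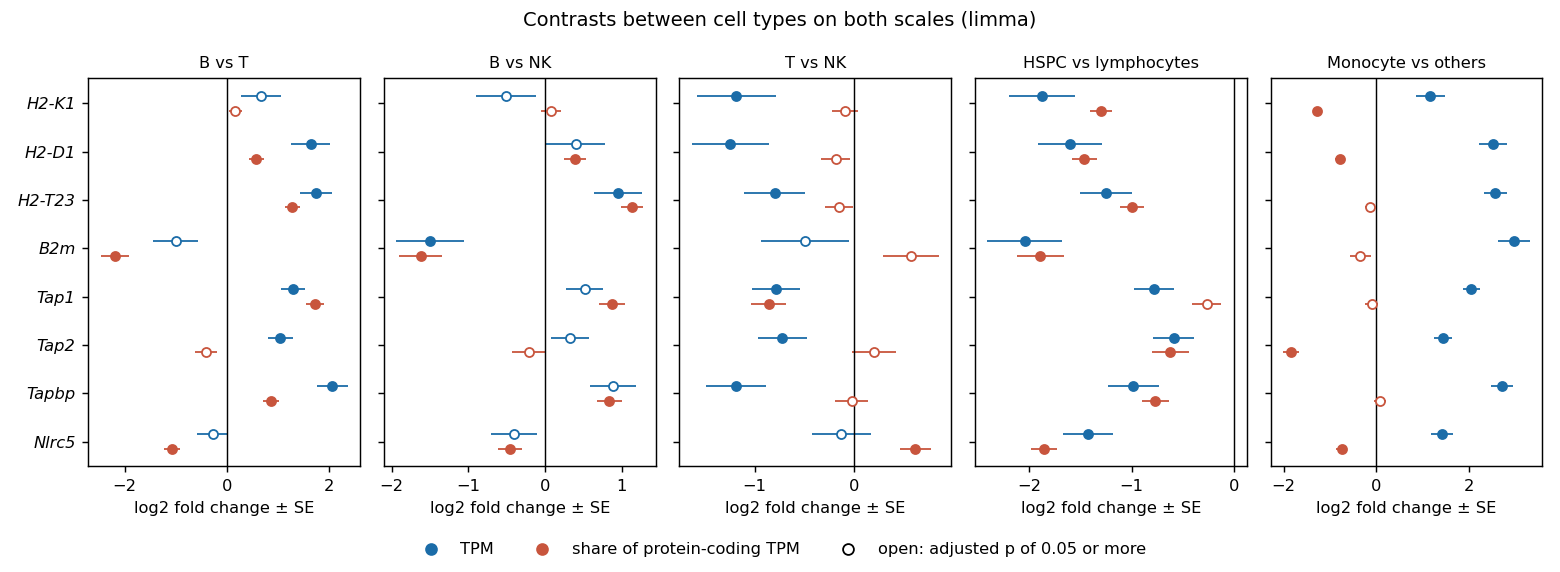
Log2 fold change ± SE of each gene in the 5 contrasts (limma), on the TPM scale and on the share scale. Filled points have an adjusted p below 0.05. On the share scale B2m and Nlrc5 lie to the left and Tap1, Tapbp and H2-T23 to the right in B cells against T cells. On that scale 7 of 8 genes lie called to the left in HSPCs, where 23.5% of all genes were called lower.

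The forms of the RNA differed between the genes. B2m is listed with 1 transcript, which is protein-coding, and protein-coding transcripts made up 93.4% to 98.9% of H2-D1. Of H2-K1, transcripts annotated as retaining an intron, led by H2-K1-214 and H2-K1-215, held 54.2% ± 7.32 of the TPM on B cells, 69.5% ± 4.55 on T cells, 68.4% ± 0.410 on NK cells, 56.0% ± 2.57 on HSPCs and 43.8% ± 6.37 in monocytes. The TPM of H2-K1 over all transcripts exceeded that of H2-D1 in the means of B cells, T cells, NK cells and HSPCs but not of monocytes, while its protein-coding share was below that of H2-D1.

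The same class of transcript separated the transporter subunits. For Tap1 it held 74.5% ± 3.17 of the TPM in T cells, 49.9% ± 4.61 in NK cells, 35.8% ± 4.92 in HSPCs, 32.9% ± 5.24 in B cells and 11.9% ± 7.02 in monocytes, and the T-cell libraries lay above all others. For Tap2 the order was another one, with 85.4% ± 5.84 in monocytes and 42.5% ± 7.51 in T cells, the other 3 types lying between. For H2-T23 it ranged from 7.63% ± 1.88 in monocytes to 40.1% ± 0.995 in T cells, and for Tapbp from 0 in monocytes to 24.8% ± 4.67 in NK cells. The monocyte tables list 1 transcript more than the others for each of Tap1 and Tapbp, at 0 TPM in all 3 libraries. These proportions are Kallisto's estimates from short reads and are given without a test. A value above 50 TPM, the level from which the study counted a transcript as a hit, was reached by B2m-201 in every library of T cells, NK cells and monocytes and in B replicate 1 (73.6 TPM), and by H2-D1-201 in every monocyte library (mean 114 TPM). It was reached in 1 library only by H2-K1-201 in monocytes (45.6, 48.6 and 58.9 TPM) and by H2-K1-215 in NK cells (50.7 TPM in NK replicate 2), and by no transcript of the other 5 genes.

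**Figure D4:**
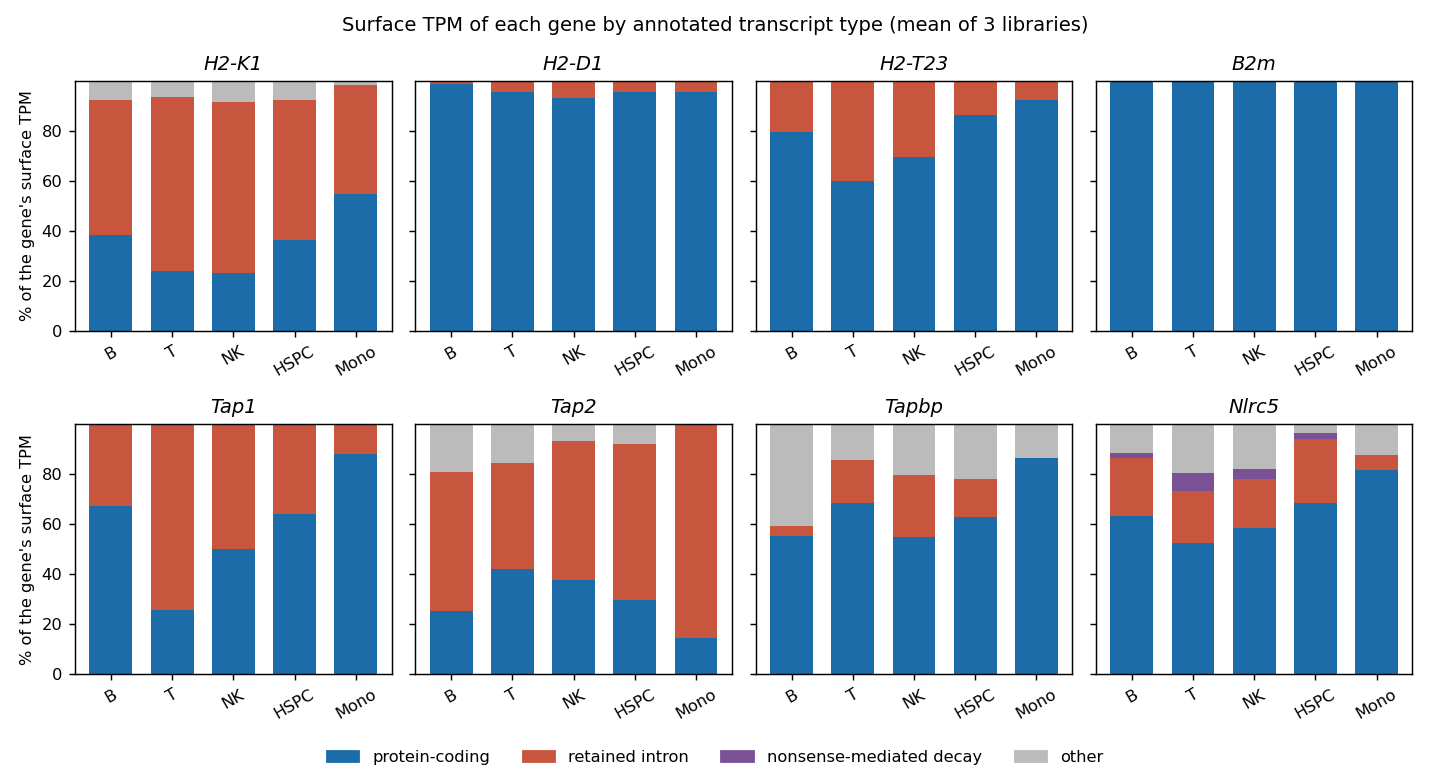
Percentage of each gene's surface TPM by annotated transcript type, as means of 3 libraries. Retained-intron transcripts hold more than protein-coding ones in H2-K1 in 4 of 5 cell types, in Tap1 in T cells and in Tap2 in all but T cells, where both hold about equal parts.

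Other genes of the pathway were counted in 7 lists, with the members left out, on the share scale and then as TPM. In HSPCs against lymphocytes, further heavy chains and class I-like genes were called 0 higher and 7 lower of 9 tested, led by H2-Q6 (-2.73, adjusted p = 1.33e-09) and H2-Q7 (-2.71, adjusted p = 2.55e-08), both non-classical heavy chains. Peptide loading and folding factors of the endoplasmic reticulum were 9 higher and 2 lower of 14. The chaperones Calr (1.66, adjusted p = 4.33e-09) and Canx (1.61, adjusted p = 7.65e-08) and the oxidoreductase Pdia3 (1.49, adjusted p = 9.42e-08), which serve all glycoproteins, were higher, and Tapbpl, a relative of tapasin, was lower (-1.32, adjusted p = 1.92e-07). The list of constitutive proteasome subunits, most of them core subunits shared with the immune form, gave 9 higher and 0 lower of 14. The interferon-induced proteasome genes were 0 higher and 2 lower of 5, with Psme1 at -0.83, adjusted p = 2.01e-06.

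Regulators of class I transcription were 2 higher and 6 lower of 13 in HSPCs, with Irf1 (-2.06, adjusted p = 2.22e-08), an interferon-induced transcription factor, lower and Ezh2, a histone methyltransferase, higher (1.15, adjusted p = 0.000476). Interferon-gamma response genes were 1 higher and 14 lower of 17, led by Ciita (-3.01, adjusted p = 5.33e-07), the class II transactivator, which is also a gene of B cells. Receptors that bind class I were 0 higher and 8 lower of 9, which are largely NK-cell and CD8 T-cell genes. The background in this contrast was 34.0% higher and 23.5% lower. The list medians were -1.73 for receptors, -1.28 for heavy chains, -0.97 for interferon-gamma response, -0.39 for the immune proteasome and -0.35 for regulators. They were 0.81 for peptide loading and 0.50 for the constitutive proteasome, beside 0.12 for all genes.

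In B cells against T cells, where 26.4% of all genes were called higher and 15.2% lower as shares, the further heavy chains were 4 higher and 1 lower of 9, peptide loading genes 3 higher and 3 lower of 14, and the immune proteasome 2 higher and 1 lower of 5, with Psmb9, a catalytic subunit, at 0.87, adjusted p = 0.00866. Interferon-gamma response genes were 5 higher and 10 lower of 17. Ciita was higher in B cells (4.54, adjusted p = 8.76e-08), whereas the interferon-induced GTPases Tgtp1 (-3.84, adjusted p = 2.74e-09), Tgtp2 (-2.22, adjusted p = 2.86e-06) and Ifi47 (-1.72, adjusted p = 2.56e-07) were lower. Of the regulators, Irf8 (4.73, adjusted p = 6.39e-11) and Nfkb1 (1.41, adjusted p = 4.18e-05) were higher and Irf1 (-1.48, adjusted p = 1.23e-05) was lower. Rfx5, the DNA-binding partner of Nlrc5 and Ciita, was higher (1.19, adjusted p = 0.00338), though not with a pseudocount of 1 part in place of 10 (adjusted p = 0.0944). The constitutive proteasome was 2 higher and 2 lower of 14, and class I receptors were 0 higher and 5 lower of 9.

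In B cells against NK cells, beside 17.9% higher and 27.8% lower of all genes, the further heavy chains were 5 higher and 2 lower of 9, peptide loading genes 0 higher and 7 lower of 14, constitutive proteasome subunits 0 higher and 7 lower of 14 and immune ones 2 higher and 0 lower of 5, where Psmb9 (1.18, adjusted p = 0.000858) and Psmb8 (0.86, adjusted p = 0.000454) were higher in B cells. Regulators were 5 higher and 2 lower of 13, interferon-gamma response genes 5 higher and 5 lower of 17 and receptors 0 higher and 8 lower of 9. In T cells against NK cells, beside 8.70% and 31.2%, the same lists gave 2 higher and 2 lower of 9 for heavy chains, 1 higher and 8 lower of 14 for peptide loading, 0 higher and 4 lower of 14 for the constitutive and 2 higher and 0 lower of 5 for the immune proteasome. Regulators were 3 higher and 3 lower of 13, receptors 2 higher and 7 lower of 9 and interferon-gamma response genes 8 higher and 4 lower of 17, with Tgtp1 (2.77, adjusted p = 2.53e-07) and Tgtp2 (1.99, adjusted p = 1.16e-05) higher in T cells. In monocytes against the rest, beside 44.0% and 19.2%, the counts were 2 higher and 4 lower of 9, 8 higher and 0 lower of 14, 10 higher and 0 lower of 14, 2 higher and 1 lower of 5, 7 higher and 3 lower of 13, 1 higher and 8 lower of 9 and 6 higher and 9 lower of 17 for these lists in that order. The further heavy chains and class I-like genes lower in monocytes, 4 beside 2 higher, were led by H2-Q7 (-3.53, adjusted p = 5.18e-10) and H2-Q6 (-3.52, adjusted p = 2.38e-11). The same genes led in HSPCs. These contrasts share libraries with each other.

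As TPM the counts of the same lists were different. In HSPCs they were, higher and lower in turn, 0 and 7 of 10 for heavy chains, 2 and 1 of 14 for peptide loading, 0 and 0 of 14 for the constitutive and 0 and 4 of 5 for the immune proteasome, 1 and 5 of 14 for regulators, 0 and 9 of 12 for interferon-gamma response and 0 and 7 of 8 for receptors, beside 7.61% and 20.9% of all genes. In B cells against T cells they were, in the same order of lists, 7 and 0 of 10, 7 and 0 of 14, 7 and 0 of 14, 5 and 0 of 5, 7 and 0 of 14, 5 and 2 of 12 and 1 and 3 of 8, beside 35.8% and 4.73%. For B cells against NK cells they were 2 and 3 of 10, 0 and 0 of 14, 0 and 2 of 14, 0 and 0 of 5, 1 and 1 of 14, 3 and 1 of 12 and 0 and 5 of 8, beside 8.17% and 12.1%. T cells against NK cells gave 0 and 5 of 10, 0 and 11 of 14, 0 and 12 of 14, 0 and 2 of 5, 0 and 7 of 14, 1 and 4 of 12 and 2 and 6 of 8, beside 2.91% and 43.5%. Monocytes against the rest gave 8 and 1 of 10, 14 and 0 of 14, 14 and 0 of 14, 5 and 0 of 5, 14 and 0 of 14, 9 and 2 of 12 and 2 and 5 of 8, beside 89.9% and 4.15%. The chaperones Calr (1.14, adjusted p = 0.00643) and Canx (0.86, adjusted p = 0.00863) were higher in HSPCs as TPM too.

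The genes most like B2m over the 12 surface libraries of B cells, T cells, NK cells and HSPCs, by Pearson's r of the log2 share among 8988 genes, were Aebp2 (0.976), Tmsb4x (0.969), Ypel5 (0.968), Tspyl1 (0.967) and Glipr2 (0.965). Nlrc5 reached 0.877 at rank 139, Tap2 0.697 and H2-K1 0.601, while Tap1 was at -0.482. These points share cell types and libraries, and the values only describe likeness.

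In PBMC total RNA the class I genes were well counted. The 9 libraries held 4686426 to 9055797 expected counts, of which 1 ribosomal RNA gene took 50.5% to 57.0%. Per length, in ct, H2-D1 stood at 44.3 ± 4.87 TPM, B2m at 37.6 ± 3.49, H2-K1 at 35.9 ± 2.60, H2-T23 at 9.91 ± 0.718, Tapbp at 9.75 ± 0.146, Nlrc5 at 5.16 ± 0.899, Tap1 at 4.79 ± 0.569 and Tap2 at 3.27 ± 0.405. Neighbours in this order overlapped in their ct libraries, except H2-K1 with H2-T23, Tapbp with Nlrc5, and Tap1 with Tap2.

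After TMM normalization H2-K1 had 62.8, 66.4 and 60.9 counts per 1000000 (CPM) in the ct libraries, 70.8, 72.2 and 75.9 in those of WT and 54.6, 63.2 and 56.0 in those of Y. All WT values were above those of ct and of Y, and ct and Y overlapped. In Y, WT and ct in turn, H2-D1 had 221, 221 and 222, then 251, 241 and 266, then 235, 248 and 224 CPM. B2m had 93.0, 97.5 and 90.9 in Y, 104, 111 and 109 in WT, and 102, 97.5 and 105 in ct. For both, every WT library and every ct library lay above every Y library, for B2m by less than 0.1 CPM between the nearest ct and Y libraries. The values of H2-T23 were 54.3, 56.1 and 50.3 in Y, 54.9, 55.5 and 63.2 in WT, and 50.9, 57.1 and 56.0 in ct, and the groups overlapped. These separations depended on the scaling. As CPM of the library total, H2-K1 was 77.1, 73.1 and 59.2 in WT, 60.8, 64.8 and 65.4 in ct and 53.4, 65.0 and 61.6 in Y, and with WT replicate 3 lowest in WT for all 3 genes their WT, ct and Y libraries overlapped. As TPM from RSEM, every WT library of H2-K1, H2-D1 and B2m lay above every Y library, but WT and ct overlapped.

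Of the loading genes and Nlrc5, the Y libraries of Tap1 and Nlrc5 lay below all WT libraries, and the other values overlapped. Tap1 had 46.9, 47.0 and 47.1 CPM in Y, 49.9, 49.9 and 52.0 in WT, and 48.5, 54.8 and 45.3 in ct. Nlrc5 had 56.1, 54.7 and 55.2, then 65.8, 63.0 and 58.8, then 62.1, 70.7 and 53.4 in the same order of groups. Tap2 ranged from 20.5 to 25.5 CPM and Tapbp from 51.1 to 67.7 over the 9 libraries. As CPM of the library total and as TPM, WT and Y overlapped for both Tap1 and Nlrc5. After TMM, 5 of 8 members thus had every Y library below every WT library and 0 above, beside 8.75% and 8.54% of all genes. Of Y and ct, 2 members had every Y library below and 0 above, beside 7.55% and 5.70%. Of WT and ct, 1 member had every WT library above and 0 below, beside 7.62% and 8.62%.

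With the quasi-likelihood test of edgeR, 0 of 8 members passed in any of the 3 comparisons, and 0 passed with DESeq2. All genes were called in 0.765% (higher) and 1.60% (lower) in WT against ct, 0.266% and 0.438% in Y against ct, and 0.438% and 0.817% in Y against WT, of 11635 tested. At an unadjusted p below 0.05 there was 1 member in WT against ct, higher, where 5.78% of all genes were higher and 5.97% lower at that limit. There were 0 in Y against ct, where 3.77% and 4.84% of all genes were, and 3 in Y against WT, all lower, where 5.60% and 6.15% were. H2-K1 was the first of these in size, with Y against WT at -0.33, 95% confidence interval -0.51 to -0.15, adjusted p = 0.0845 and WT against ct at 0.20, 95% confidence interval 0.03 to 0.38, adjusted p = 0.339. In Y against WT, B2m gave -0.21, 95% confidence interval -0.38 to -0.03, adjusted p = 0.319, and H2-D1 -0.19, 95% confidence interval -0.37 to -0.01, adjusted p = 0.395. The comparisons share libraries. The median log2 fold change of the members was 0.06 in WT against ct, -0.08 in Y against ct and -0.14 in Y against WT, where the median of all genes was 0.00 to 2 decimals.

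Other pathway genes passed in small numbers. Irf1 was higher in WT than in ct (0.46, adjusted p = 0.00273), and it passed in 15 of 15 other settings. It was lower in Y than in WT (-0.36, adjusted p = 0.0302) but passed there in 7 of 15. The heavy chains H2-Q10 (-0.75, adjusted p = 0.00349), H2-Q6 (-0.41, adjusted p = 0.0381) and H2-Q7 (-0.37, adjusted p = 0.0375) were lower in Y than in WT, 3 of 14 tested, which passed in 15 of 15, 7 of 15 and 8 of 15 other settings. H2-Q10 was also higher in WT than in ct (0.46, adjusted p = 0.041, 7 of 15 settings). Hspa5, a chaperone of the endoplasmic reticulum, was higher in WT than in ct (0.33, adjusted p = 0.0475, 4 of 15 settings) and lower in Y than in WT (-0.45, adjusted p = 0.0109, 12 of 15). No proteasome subunit, interferon-gamma response gene or class I receptor of the lists passed in any comparison, and no gene of any list passed in Y against ct. Neutrophil markers summed to 279 to 285 CPM in Y, 102 to 136 in WT and 119 to 150.5 in ct, and erythroid markers to 6655 to 8090.0 in ct, 3872 to 5023 in WT and 4875 to 4901 in Y, with Car1 at 0 in ct and Y. Platelet markers summed to 440 to 525 CPM in ct, 362 to 402 in Y and 250 to 333 in WT, without overlap. Their part in these differences was not tested.

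**Figure D5:**
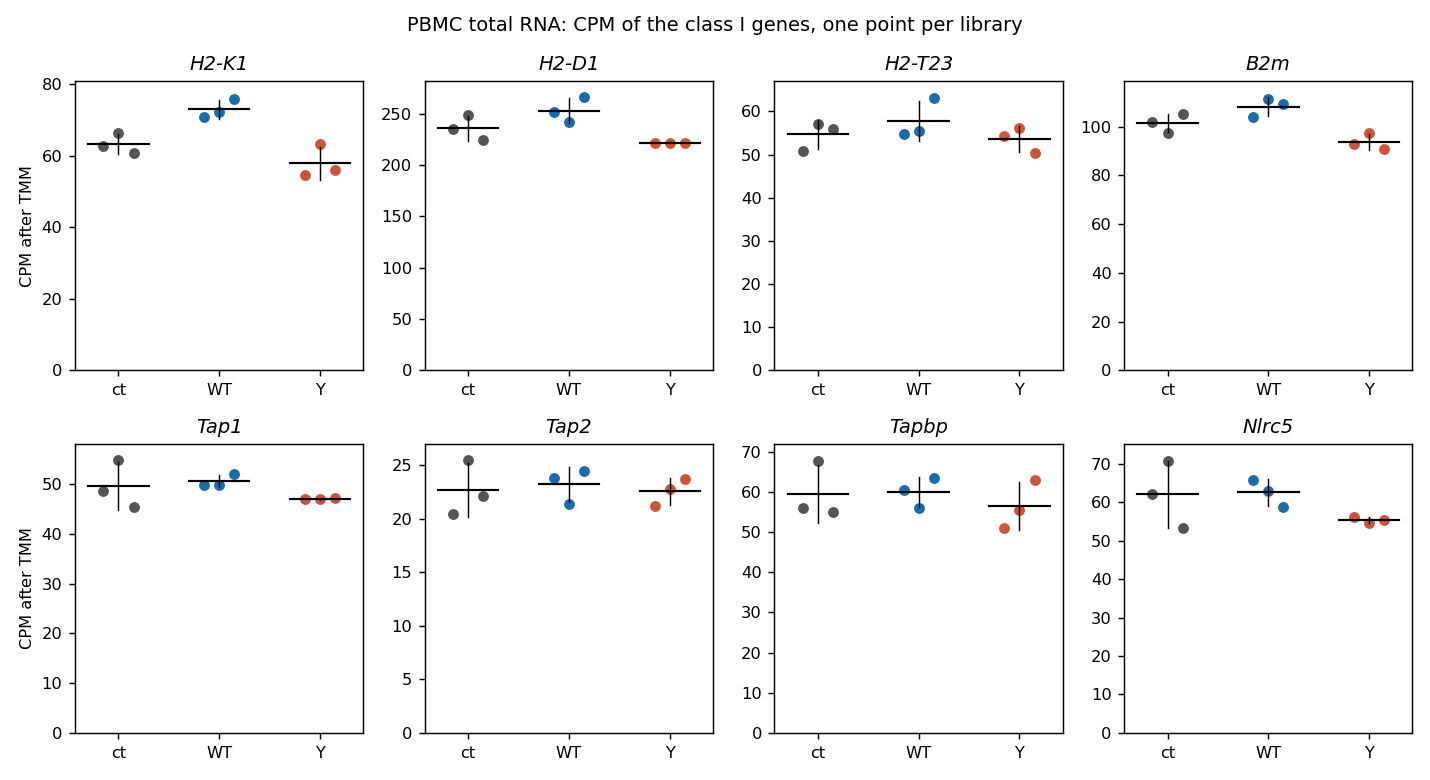
TMM-normalized CPM of the 8 genes in PBMC total RNA, with 1 point per library and mean ± SD of 3 libraries (linear axes from 0), by treatment label. H2-K1, H2-D1, B2m, Tap1 and Nlrc5 are higher in every WT library than in every Y library on this scale, as are 8.75% of all genes, though not as CPM of the library total, and no gene passed the adjusted threshold.

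Over the 9 PBMC libraries the genes most like B2m in log2 CPM, by Pearson's r among 11622 genes, were Gmeb2 (0.964), Atp6v0c-ps2 (0.951), Adgre4 (0.927), Tbx21 (0.925) and Psmd4 (0.919). H2-K1 was at 0.835, rank 77, and Tap2 at -0.086. These points share treatment groups and depth.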

How the data were processed

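Surface RNA was measured in 15 libraries and PBMC total RNA in 9. For the surface libraries the authors trimmed reads with Trimmomatic, removed duplicates by barcode and deposited TPM per transcript from Kallisto. For PBMCs the authors deposited expected counts and TPM per gene from RSEM. The submitters' processing notes name the build mm10. The transcript set of the surface tables is not given in the sources used here. Transcript TPM were summed by gene name, and protein-coding transcripts were also expressed in parts per 1000000 of protein-coding TPM.

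TPM are not counts, so limma 3.58.1 in R 4.3.3 was used on log2(TPM + 1), for genes with a mean above 1 TPM, and on log2(parts + 10), above 10 parts. Each was 1 fit of 15 libraries with a mean-variance trend. PBMC expected counts were rounded and tested with edgeR 4.0.16 (quasi-likelihood, TMM, default filter) in 1 fit of 9 libraries, and with DESeq2 1.42.0 as an alternative. Calls needed a Benjamini-Hochberg adjusted p below 0.05 over all genes tested. PBMC libraries held 4686426 to 9055797 counts, and intervals cover the spread between libraries. The tests were checked on simulated data, in which limma on log2(TPM + 1) missed most of the genes changed by 1.5 on the log2 scale and found most of those changed by 3, and edgeR missed the larger part of those changed by 0.6. A value that did not pass therefore does not show equal levels.

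Groups came from the submitters' labels. All 8 members were named in every comparison, and of each pathway list at most 4 called genes with the largest absolute fold change. For 1 gene named by this rule the values are not reported here. The members and lists were chosen with earlier results of these data known. Alternatives were other pseudocounts, filters, scalings and size factors, a replicate block, fewer groups, and each library left out in turn. Same-numbered T-cell and NK-cell libraries deviated together (r of 0.458, 0.218 and 0.342 across genes), by the rule that every pair exceed 0.1, and the labels do not say why. Other pairs of groups did not meet it.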

Additional observations from a re-analysis of the deposited data

How the results depend on the processing

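On the share scale, no planned setting other than leaving out a library changed the number of members called beyond 1.5 times, and 119 of 120 single values kept their direction and side of the threshold. The exception was H2-D1 in B against NK cells, which was 0.39 with an adjusted p of 0.0552 without a filter. On the TPM scale the counts moved with scaling. In B cells against T cells, quantile normalization gave 1 member lower (0 as reported). In B cells against NK cells (1 higher and 1 lower), the members called higher were 0 without a filter, with a pseudocount of 0.1 TPM or without monocytes, 4 after quantile normalization, 2 with the replicate block and 3 after rescaling, and those called lower 0 without a filter or after rescaling. Of all genes, 709 of 10349 were higher in B cells with that pseudocount, 699 of 5929 without monocytes and 932 of 10349 with the block. In T cells against NK cells (0 and 6), quantile normalization gave 1 higher and 3 lower, and no filter 3 lower. In HSPCs (0 and 8), rescaling gave 1 higher and 1 lower. In monocytes (8 and 0), quantile normalization gave 1 higher and 5 lower. The causes were not tested.

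Single values turned sign as follows. Rescaling gave Nlrc5 0.22 in B against T cells, and Tap1 0.48, Tap2 0.71 and Tapbp 0.42 in HSPCs. Quantile normalization gave Nlrc5 0.57 in T against NK cells, and H2-K1 -1.26, H2-T23 -0.35, Tap1 -0.76, Tap2 -1.14, Tapbp -0.24 and Nlrc5 -0.94 in monocytes. In PBMCs, Tap2 in Y against ct was -0.014 without a filter and -0.0012 with the replicate block.

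Leaving out each library in turn gave 0 to 1 members lower in B against T cells, 0 to 2 higher and 0 to 1 lower in B against NK cells and 1 to 6 lower in T against NK cells as TPM, and 1 to 2 lower in B against NK cells as shares. Values that crossed 0, none of them called, ranged for Nlrc5 TPM from -0.65 to 0.080 in B against T and -0.48 to 0.25 in T against NK cells, and as shares for H2-K1 from -0.0061 to 0.15 and Tap2 from -0.34 to 0.0088 in B against NK, Tapbp from -0.17 to 0.052 in T against NK and Tap1 from -0.28 to 0.024 in monocytes. In PBMCs they were Tap1 -0.020 to 0.11, Tap2 -0.034 to 0.12, Tapbp -0.031 to 0.11 and Nlrc5 -0.075 to 0.11 in WT against ct, H2-T23 -0.078 to 0.021, Tap1 -0.13 to 0.0022, Tap2 -0.068 to 0.088 and Tapbp -0.15 to 0.033 in Y against ct, and Tap2 -0.092 to 0.0044 in Y against WT.

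Of all PBMC genes, DESeq2 called 46 higher and 114 lower in WT against ct (edgeR 89 and 186), 28 and 43 in Y against ct (31 and 51) and 29 and 60 in Y against WT (51 and 95), and no filter 238 and 246, 133 and 124, and 132 and 234. A fit of WT and Y alone called 78 higher (51). Of all surface genes as TPM, quantile normalization called 2135 and 1754 in B against T cells (3705 and 490), 2151 and 1830 in B against NK cells (845 and 1252), 1328 and 1595 in T against NK cells (301 and 4504), 3132 and 2516 in HSPCs (788 and 2160) and 3283 and 3254 in monocytes (9300 and 430). Rescaling called 7358 higher in B against T cells, 1664 higher in B against NK cells, 7233 lower in T against NK cells, 8158 higher and 1068 lower in HSPCs and 892 lower in monocytes. Without a filter 456 were higher in T against NK cells and 18753 higher and 927 lower in monocytes, and without monocytes 2834 were lower in T against NK cells and 437 higher in HSPCs. With each library left out in turn, the counts of all genes ranged from 56 to 126 higher and 111 to 171 lower in WT against ct, 17 to 116 higher and 17 to 51 lower in Y against ct and 26 to 65 higher and 26 to 112 lower in Y against WT, and as TPM from 2170 to 4336 higher and 378 to 529 lower in B against T cells, 525 to 951 higher and 814 to 1880 lower in B against NK cells, 224 to 327 higher and 2056 to 6519 lower in T against NK cells and 444 to 965 higher and 1382 to 2966 lower in HSPCs. The surface counts moved by over 1.5 times without T replicate 1 in B against T cells, B replicate 2 or 3 or NK replicate 1 or 3 in B against NK cells, T replicate 1 or NK replicate 2 or 3 in T against NK cells, and any HSPC library in HSPCs. In PBMCs they did so for ct replicate 1, 2 or 3 or WT replicate 2 in WT against ct, any ct or Y library in Y against ct, and WT replicate 2 or 3 or any Y library in Y against WT.

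The numbers pair T-cell and NK-cell libraries, and the replicate block left their count at 6 lower. That block was shared by all 15 surface libraries and did not model this pairing alone. For other groups the libraries share only a number (r from -0.26 to 0.13 on the surface, -0.061 to 0.059 in PBMCs).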
